A study of Mus musculus with 9 samples.

Results

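The comparison is of the mouse heart at 7 days after birth with the heart at 24 hours after birth. It rests on 6 of the 9 arrays of the series: the 3 labelled Muscle_24-hour old and the 3 labelled Muscle_7-day old, all of total RNA from cardiac muscle of the inbred laboratory mouse C57BL/6, hybridized to Affymetrix Mouse Gene 1.0 ST arrays. No genotype or treatment separates the groups, which the labels set apart by age alone. The other 3 arrays, from hearts at 10 weeks, enter the fit for the estimate of spread and give a later level beside some genes. All 19938 genes that have a feature with 1 gene symbol are members, each read through its feature with the highest mean. The labels do not give the chamber taken, nor do they say that the 3 hearts of an age were different animals; the p-values below therefore rest on the spread of these samples alone, which may be technical.

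The first week after birth is the time in which the mouse heart leaves the womb's supply of glucose and low oxygen for milk fat and air, and in which its muscle cells stop dividing and go on growing by enlargement. Fetal contractile isoforms give way to adult ones, the insulin-like growth factors that drive fetal growth recede, and fibroblasts, vessels and resident macrophages spread between the muscle cells. These are textbook features of the tissue and not results of these arrays.

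Values are log2 signals as deposited, so that a difference of 1 is a 2-fold change, and each is given as mean ± SD over the 3 arrays of an age. A gene was called changed where limma's moderated test of 7 days against 24 hours gave a Benjamini-Hochberg adjusted p under 0.05 over all 19938 genes. By that rule 2009 genes, 10.1% of those tested, changed: 1050 were higher at 7 days (5.27%) and 959 lower (4.81%). The changes were mostly small, with a median size of 0.41 among the called genes, and 85 rises (0.426%) and 40 falls (0.201%) reached 2-fold. The median difference over all genes was -0.002. With every array centred on its own median the split was 888 higher and 1247 lower, so that 41.6% of calls were rises in place of 52.3%. Further fits left out each of the 6 arrays in turn, and 965 genes (4.84%) were called in all 6 of them. A gene described below as rising or falling was called in all 6 of these fits unless its number of fits is given. Counts of list members below are to be read beside the shares of all genes, 5.27% higher and 4.81% lower. Without any overlap between the ages, 12.6% of all genes were higher at 7 days and 14.5% lower, so a lack of overlap is common.

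**Figure D1:**
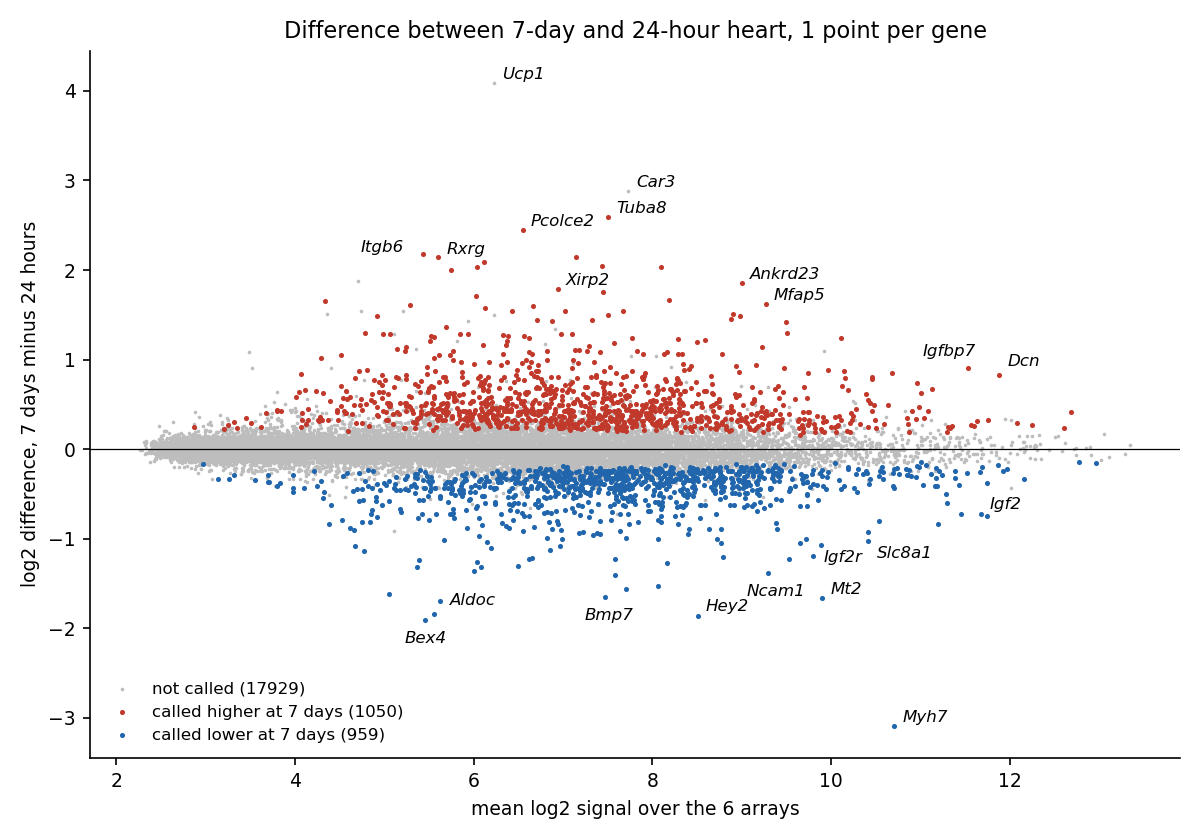
Log2 difference, 7 days minus 24 hours (y axis), against the mean log2 signal over the 6 arrays (x axis), 1 point per gene. Called rises (1050) and falls (959) are red and blue; Myh7 stands alone at -3.09, while Ucp1 at 4.09 and Car3 at 2.88 are grey, as they were not called.

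The cardiac label was borne out by the markers of heart muscle. Summed on the linear scale and returned to log2, 12 cardiomyocyte genes gave 15.86, 15.87 and 15.88 on the 24-hour arrays and 15.82, 15.81 and 15.85 on the 7-day arrays. Some arrays also carried transcripts of neighbouring tissues. The brown fat uncoupling gene Ucp1 gave 4.17, 4.27 and 4.09 at 24 hours and 4.30, 11.23 and 9.27 at 7 days, and Car3, Adipoq and Plin1 were likewise high on 7-day replicates 2 and 3 and not on replicate 1. The airway secretoglobin Scgb3a2 measured 8.02, 3.42 and 3.26 at 24 hours and 3.39, 7.07 and 3.25 at 7 days, so 24-hour replicate 1 and 7-day replicate 2 stood apart. Alb, the plasma albumin of liver, reached 7.81 on 7-day replicate 2 against 3.89 and 3.77 on the others. None of these genes passed the test. Over whole marker lists, the summed log2 signal of 8 brown fat genes was 11.63 to 11.76 at 24 hours and 12.08, 12.75 and 12.24 at 7 days, with 2 called higher and 1 lower, and that of 10 airway genes was 9.59, 7.69 and 7.63, then 7.68, 9.19 and 7.70, with none called. Smooth muscle and elastin genes followed the same array: Eln measured 9.70, 11.44 and 10.28 at 7 days, and Cnn1, chosen after its values were seen, 6.08, 8.32 and 7.34. With 7-day replicate 1 as the only 7-day array, 516 of the 19938 genes were called, 265 higher and 251 lower, in a fit that has fewer arrays as well as no fat transcripts. Its counts are given beside most gene lists below as those on replicate 1 alone, and fewer calls were made there over all genes too. The part of these tissues in the results below was not tested.

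**Figure D2:**
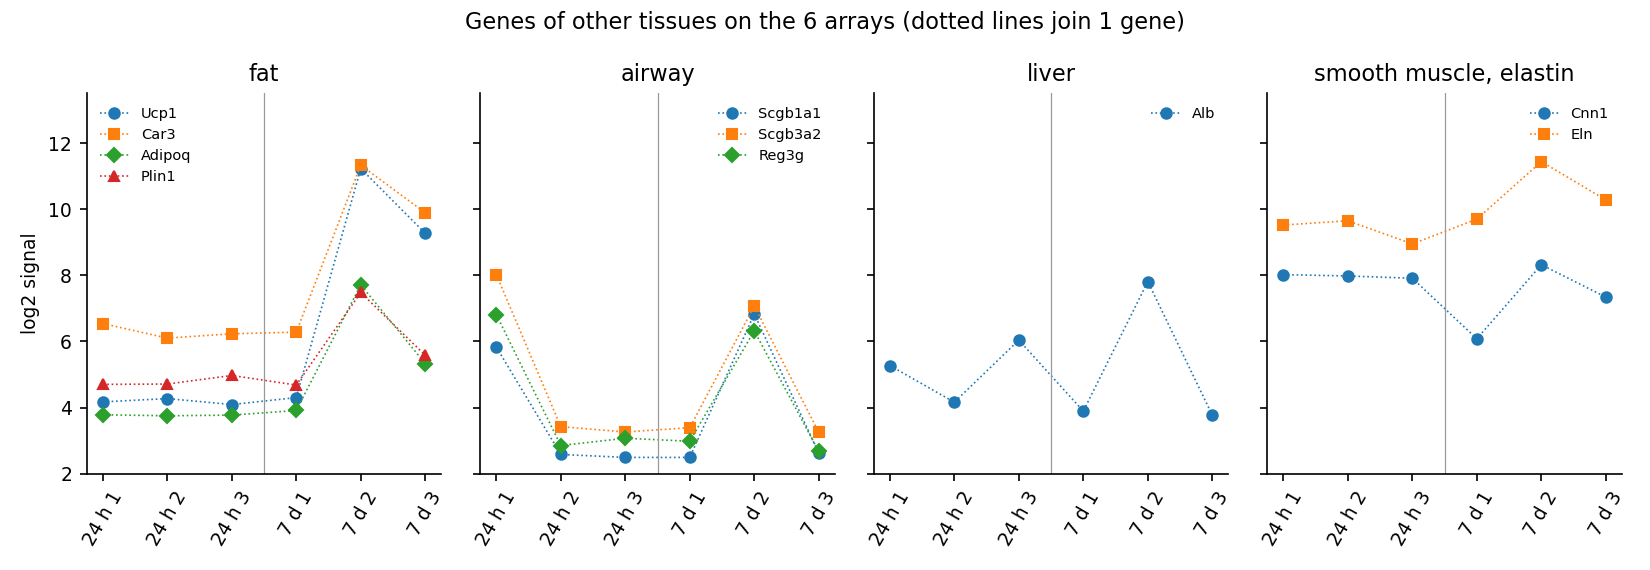
Log2 signal (y axis) of fat, airway, liver and smooth muscle or elastin genes on each of the 6 arrays (x axis); points of 1 gene are joined by dotted lines. Fat transcripts are high on 7-day replicates 2 and 3, airway transcripts on 24-hour replicate 1 and 7-day replicate 2, and albumin on 7-day replicate 2.

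The contractile apparatus changed through a few isoforms rather than as a whole. Of 12 thick filament genes none rose and 2 fell (0 and 1 in the fit on replicate 1 alone), and the median difference of the list was 0.05 against -0.002 for all genes. Myh7, the slow myosin heavy chain of the fetal ventricle, measured 12.12, 12.42 and 12.23 at 24 hours and 9.45, 8.90 and 9.13 at 7 days. The groups do not overlap, and the fall of 3.09 ± 0.13 (SE), or 8.54-fold, was the largest of all called genes. At 10 weeks Myh7 stood at 11.01 ± 0.13. Its relative Myh7b fell by 0.43. The adult partner Myh6 measured 12.78 ± 0.02 and 12.71 ± 0.06, with a 95% interval of the difference from -0.16 to 0.02. The ventricular light chains Myl2 and Myl3 differed by 0.02 (-0.06 to 0.10) and 0.08 (-0.05 to 0.21), so a change of the size seen for Myh7 lies outside their intervals.

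The promoter of Myh7 is shown because that gene made the largest fall. RefSeq (GRCm38.p6) lists 2 start sites for it in the promoter table used here, and the 250 bases before the first (chr14:54994627-54994876, reverse strand) hold 1 match to the M-CAT element CATTCC, the recognition sequence of the TEAD factors, searched on both strands. The match, in capitals, begins 201 bases before that start. The window of the second start site holds none, and 12.6% of 32851 promoter windows of this length hold at least 1.

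Myh7: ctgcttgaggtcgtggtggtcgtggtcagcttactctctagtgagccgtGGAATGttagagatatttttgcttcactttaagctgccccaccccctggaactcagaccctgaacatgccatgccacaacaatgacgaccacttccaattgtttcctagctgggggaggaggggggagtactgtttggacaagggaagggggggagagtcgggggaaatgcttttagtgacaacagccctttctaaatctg

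Among 17 thin filament genes Tnni1, the slow skeletal troponin I that the fetal heart uses, fell from 11.81 ± 0.05 to 11.09 ± 0.08, a fall of 0.72 that left it far above its level of 5.09 ± 0.21 at 10 weeks. Its adult counterpart Tnni3 measured 12.25 ± 0.05 and 12.40 ± 0.07 and missed the threshold (adjusted p = 0.0959). Actc1, the cardiac actin, and Tnnt2, cardiac troponin T, differed by -0.06 and -0.09, with adjusted p of 0.467 and 0.203. Of the 17, 1 rose and 2 fell; the rise of Lmod2 (0.32) and the fall of Tmod1 (0.20) were each called in 1 of the 6 fits, and a second, dimmer feature of Tmod1 differed the other way, by 0.15 (adjusted p = 0.401). In the fit on replicate 1 alone none of the 17 was called.

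Genes of the Z-disc and of titin's partners changed both ways. Of 25 Z-disc, M-band and titin-linked genes 4 rose and 5 fell, with 3 falls left without any 1 of the 24-hour arrays or without 7-day replicate 1; on replicate 1 alone 3 rose and none fell. Ankrd23, a titin-binding ankyrin repeat protein of striated muscle, measured 7.86, 8.31 and 8.05 at 24 hours and 10.00, 9.71 and 10.05 at 7 days, a rise of 1.85 ± 0.11 (SE; 3.59-fold, adjusted p = 1.31e-05). Xirp2, an actin-binding repeat protein of the intercalated disc, rose from 5.87, 6.42 and 5.85 to 7.77, 7.86 and 7.86, and reached 10.44 ± 0.24 at 10 weeks. No 24-hour value of either gene reaches the lowest 7-day one, as the rule that named the largest changes requires. The titin cap Tcap rose by 0.61 and Fhl2 by 0.31. Ankrd1, which is related to Ankrd23, gave 12.26 ± 0.18 and 12.28 ± 0.03 (95% interval -0.15 to 0.19), and the Xirp2 relative Xirp1 fell by 0.35. Desmin and alpha-actinin 2 (Des and Actn2) fell by 0.29 and 0.22, within narrow intervals of -0.41 to -0.18 and -0.31 to -0.13. Trim72, which repairs the muscle cell membrane, rose 3.03-fold, from 5.87 ± 0.21 to 7.47 ± 0.10, and the desmin-binding syncoilin gene Sync, named after its values were seen, rose 2.08-fold.

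The Xirp2 promoter is shown beside it as that of a structural gene that rose. Its 250 bases before the start (chr2:67445752-67446001, forward strand; RefSeq, GRCm38.p6) hold 1 match to a loose pattern for sites of the MEF2 factors of muscle. The pattern is CTA and TAG with any 4 bases between them. The match begins 74 bases before the start and stands in capitals. The pattern reads the same on both strands, and 3.2% of the windows hold it.

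Xirp2: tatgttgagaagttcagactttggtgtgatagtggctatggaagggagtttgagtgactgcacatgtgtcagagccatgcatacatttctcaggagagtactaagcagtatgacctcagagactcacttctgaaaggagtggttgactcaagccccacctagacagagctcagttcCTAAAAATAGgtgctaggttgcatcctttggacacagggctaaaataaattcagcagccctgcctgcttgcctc

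Of 23 junction and membrane genes 6 fell and 3 rose, against 2 and 1 on replicate 1 alone. The desmosomal and adherens junction members Pkp2, Cdh2 and Dsp fell by 0.45, 0.40 and 0.30, whereas the laminin receptor subunit Itga7 rose from 6.33 ± 0.11 to 7.32 ± 0.06 and the sarcoglycan Sgcb by 0.37. The gap junction gene Gja1 measured 10.67 ± 0.01 and 10.59 ± 0.05 (95% interval -0.25 to 0.09). Without 7-day replicate 3, 2 members rose, and without 24-hour replicate 3, 3 fell. Among ion channel genes 6 of 26 rose and 2 fell: Scn7a rose by 1.11, the pacemaker channel Hcn2 by 1.05 and the KATP pore subunit Kcnj8 by 0.65, while the T-type calcium channel Cacna1h fell by 0.48. Without any 1 array other than 7-day replicate 1, 4 of the 6 rises were left, and on replicate 1 alone 2 rose and 2 fell.

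Among calcium handling genes more were called lower than higher, though 12 differences were positive and 10 negative. Of 22 genes 5 fell and 2 rose, with a median difference of 0.01, and on replicate 1 alone 5 fell and 1 rose. Without 24-hour replicate 3 or 7-day replicate 3, 1 rise was left, as Calr (0.32) was called in 3 of the 6 fits. Slc8a1, the sodium-calcium exchanger, measured 10.88, 10.96 and 10.95 at 24 hours and 9.88, 9.92 and 9.91 at 7 days. The arrays of an age lie within 0.08 of each other, and the fall of 1.03 ± 0.06 (SE; 2.04-fold) had an adjusted p of 8.08e-06. Cacna1c, the pore of the L-type channel, fell by 0.59. Casq1, the skeletal muscle calsequestrin, fell 2.89-fold, from 8.80, 8.64 and 9.05 to 6.93, 7.60 and 7.36, while the cardiac form Casq2 measured 11.57 ± 0.07 and 11.45 ± 0.10 (adjusted p = 0.276). Hrc, a histidine-rich calcium buffer inside the reticulum, rose by 0.64. The calcium pump Atp2a2 and its inhibitor Pln differed by -0.01 (-0.10 to 0.09) and 0.00 (-0.10 to 0.10). The release channel Ryr2 fell by 0.29 but was called in only 2 of the 6 fits. It was not called without 7-day replicate 1 or any 1 of the 24-hour arrays, where the adjusted p was, for 24-hour replicates 1 to 3 and then 7-day replicate 1, 0.0829, 0.0699, 0.055 and 0.0577.

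**Figure D3:**
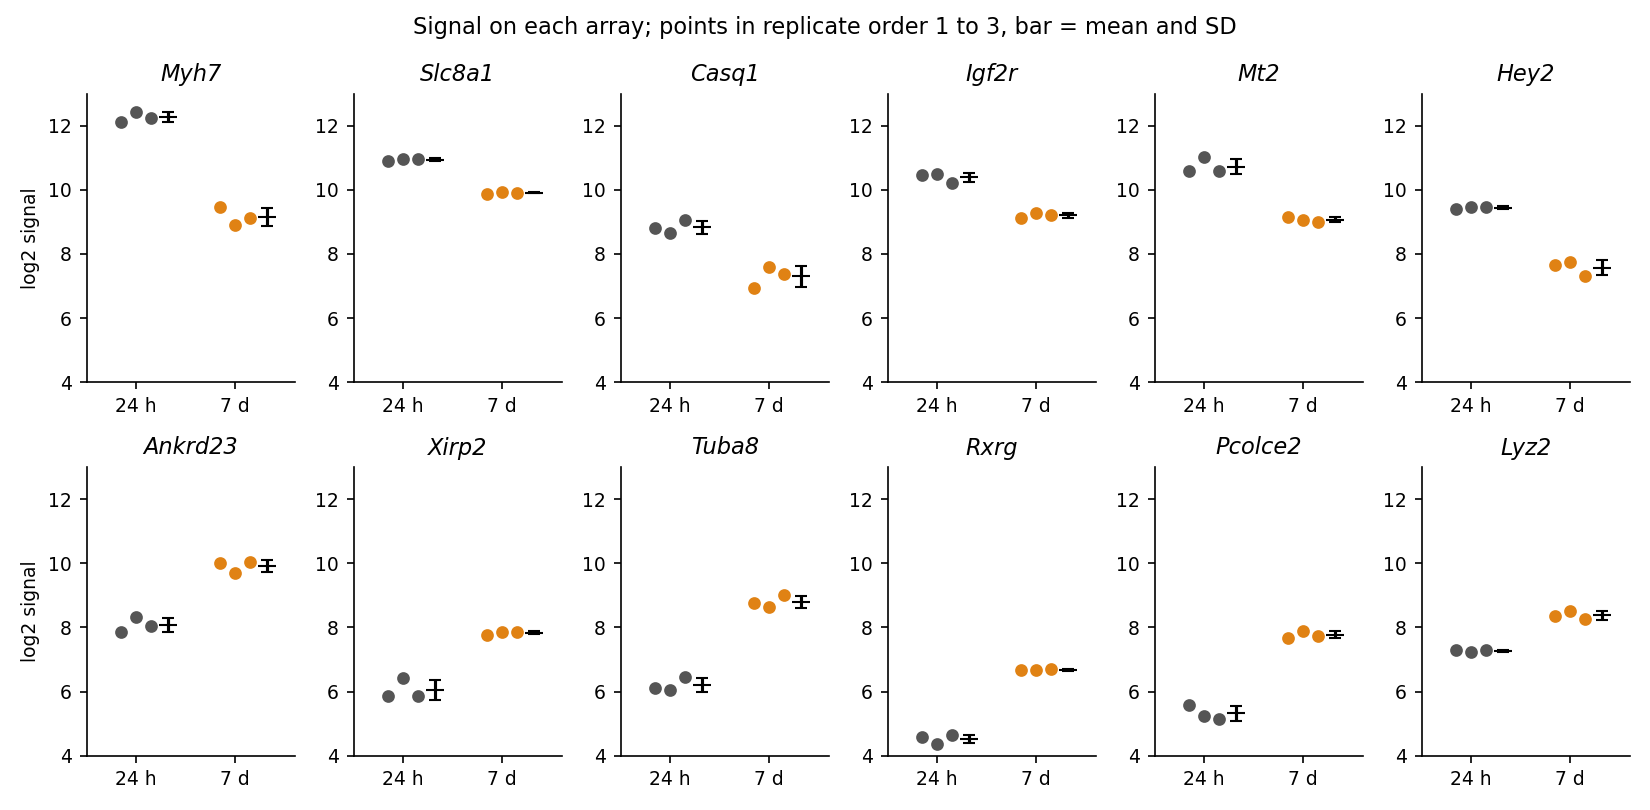
Log2 signal (y axis) of 12 genes on the 3 arrays of each age (x axis: 24 h and 7 d; points in replicate order, bar with mean and SD). In each panel the groups are apart, by 3.09 for Myh7 and by 2.59 for Tuba8.

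Tubulins held the largest rise among called genes. Tuba8, an alpha-tubulin of striated muscle and testis, measured 6.20 ± 0.21 at 24 hours and 8.80 ± 0.19 at 7 days (rise 2.59 ± 0.13 SE, 6.04-fold, adjusted p = 5.92e-06), and went on to 10.55 ± 0.20 at 10 weeks. Tuba4a, another alpha-tubulin, rose from 8.14 ± 0.22 to 9.66 ± 0.13. Tubb4a, a beta-tubulin, rose from 6.00 ± 0.08 to 7.24 ± 0.05 and the microtubule-stabilizing Tppp3 by 1.19; both were back near their 24-hour level at 10 weeks, at 5.76 ± 0.15 and 7.25 ± 0.06. Map4 cannot be placed. The feature used differed by 0.04, while a second, dimmer feature of Map4 rose by 0.61 (adjusted p = 0.00089 by limma's test). Mapt, which encodes tau, rose by 0.51. By the features used, Tuba8, Tuba4a, Tubb4a, Tppp3 and Mapt were the only called members among the 21 tubulin and microtubule genes tested. The 5 were called whichever of the 6 arrays was left out. Of these, 4 were called on replicate 1 alone.

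Fuel genes changed in opposite directions within a pathway. Of 30 glucose genes 9 fell and 5 rose, with 3 rises left without 24-hour replicate 1 or 2, and 6 falls and 2 rises on replicate 1 alone. Aldoc, the brain aldolase, fell from 6.41, 6.44 and 6.56 to 4.66, 4.76 and 4.89 (3.25-fold, adjusted p = 2.77e-06), with no overlap. Slc2a1, the glucose transporter of the fetal heart, fell by 0.99, the platelet phosphofructokinase Pfkp by 0.64 and Pgk1 by 0.43. Hk2, the hexokinase that insulin controls, rose by 0.57. The insulin-responsive transporter Slc2a4, looked up after other values were seen, measured 8.20 ± 0.09 and 8.34 ± 0.06 (adjusted p = 0.236). Hk1 cannot be placed: the feature used differed by -0.01, while a second, dimmer feature of the same symbol fell by 0.64 (adjusted p = 0.000388). Fbp2, the muscle fructose bisphosphatase, rose 2.70-fold, from 6.20, 5.98 and 6.31 to 7.65, 7.40 and 7.75. Gpd1 rose by 2.04, with 7-day values of 7.47, 9.74 and 8.17, highest on replicate 2. Its call was lost without 24-hour replicate 1 or 2 (adjusted p = 0.061 and 0.065). Its difference on replicate 1 alone was 1.05.

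Glycogen genes formed no list of their own, and some of those given here were chosen by their values. Gyg, the glycogenin that primes a glycogen particle, measured 10.39, 10.53 and 10.33 at 24 hours and 9.41, 9.29 and 9.34 at 7 days, a fall of 1.07 ± 0.06 (SE). Gys1, the muscle glycogen synthase, fell by 0.62 and the branching enzyme Gbe1 by 0.74. On the side of breakdown Pygl and Pygb, the liver and brain phosphorylases, fell by 1.08 and 0.45, whereas the muscle phosphorylase Pygm measured 10.30 ± 0.03 and 10.20 ± 0.08 (adjusted p = 0.485). Stbd1, which tethers glycogen to membranes, fell by 0.88. Ppp1r3c, which brings a phosphatase to glycogen, went the other way and rose by 0.49. Pygb, Pygm and Stbd1 were chosen after their values were seen; Gyg, Pygl, Fbp2 and Pdk3 were too, and also meet the rule for the largest changes. With 7-day replicate 1 as the only 7-day array Gyg differed by -1.01, Gbe1 by -0.82, Gys1 by -0.73 and Pygl by -1.05.

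The pyruvate dehydrogenase kinases differed by gene. Pdk3, a pyruvate dehydrogenase kinase, measured 8.13, 8.20 and 8.25 at 24 hours and 6.97, 6.96 and 6.96 at 7 days, a fall of 1.23 ± 0.06 (SE; adjusted p = 4.2e-06), and stood at 4.74 ± 0.07 at 10 weeks. Pdk1 fell by 0.42. Pdk4, the kinase induced by fasting and fat, measured 10.27 ± 0.10 and 10.25 ± 0.14 (95% interval -0.19 to 0.15), and Pdk2 differed by -0.13 (adjusted p = 0.0701). Of 26 pyruvate and TCA cycle genes 4 fell and 2 rose, beside 4.81% and 5.27% of all genes, and Suclg2 fell by 0.51. The counts on replicate 1 alone were 3 falls and no rise. Without 24-hour replicate 2 or 7-day replicate 3 none of the 26 rose, and without 24-hour replicate 2, 2 fell.

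Of 42 fatty acid genes 9 rose and 5 fell, and the median difference was -0.01. In the fit on replicate 1 alone, the 7-day array without fat transcripts, 1 rose and 1 fell, with a median of -0.02. Cpt1a, the carnitine palmitoyltransferase of liver and fetal heart, fell from 9.19 ± 0.05 to 8.56 ± 0.07, and the acyl-CoA thioesterases Acot1 and Acot2 fell by 0.82 and 0.33. Decr1, needed to oxidize unsaturated fatty acids, rose by 0.55, the lipid droplet coat Plin5 by 0.60 and Gpihbp1, which anchors lipoprotein lipase to capillary walls, by 0.66. Without 24-hour replicate 1, 4 members rose and without 24-hour replicate 2, 3 fell. The heart-type fatty acid carrier Fabp3 rose by 0.23 in 5 of the 6 fits; its adjusted p was 0.0506 without 24-hour replicate 1.

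Of 66 respiratory chain genes 11 rose and 3 fell, beside 5.27% and 4.81% of all genes. The median difference was 0.11, and 47 differences were positive. The counts on replicate 1 alone were 5 rises and 1 fall. Cytochrome c oxidase moved by isoform. Its heart and muscle subunits Cox8b and Cox7a1 rose by 0.74 and 0.47. The ubiquitous Cox6a1 fell from 11.55, 11.49 and 11.76 to 10.86, 11.19 and 10.95, while Cox6a2, the muscle partner, and Cox7a2, the ubiquitous partner of Cox7a1, differed by 0.15 (-0.01 to 0.30) and 0.02 (-0.23 to 0.26); both partners were looked up after the other values. Cox8b, also abundant in brown fat, measured 10.50, 10.50 and 10.76 at 24 hours and 11.44, 11.19 and 11.34 at 7 days. Ndufa4l2 rose by 0.57 and Ndufa1, a small subunit of complex I, by 0.37. Leaving out 24-hour replicate 1 or 2 or 7-day replicate 1 or 3 left 6 rises, and 1 fall was left in each of the 6 fits. In the creatine system the mitochondrial kinase Ckmt2 rose from 9.52 ± 0.10 to 10.40 ± 0.22, while the cytosolic kinases Ckb and Ckm fell by 0.43 and 0.41; of the 9 genes of this list 1 rose and none fell on replicate 1 alone.

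**Figure D4:**
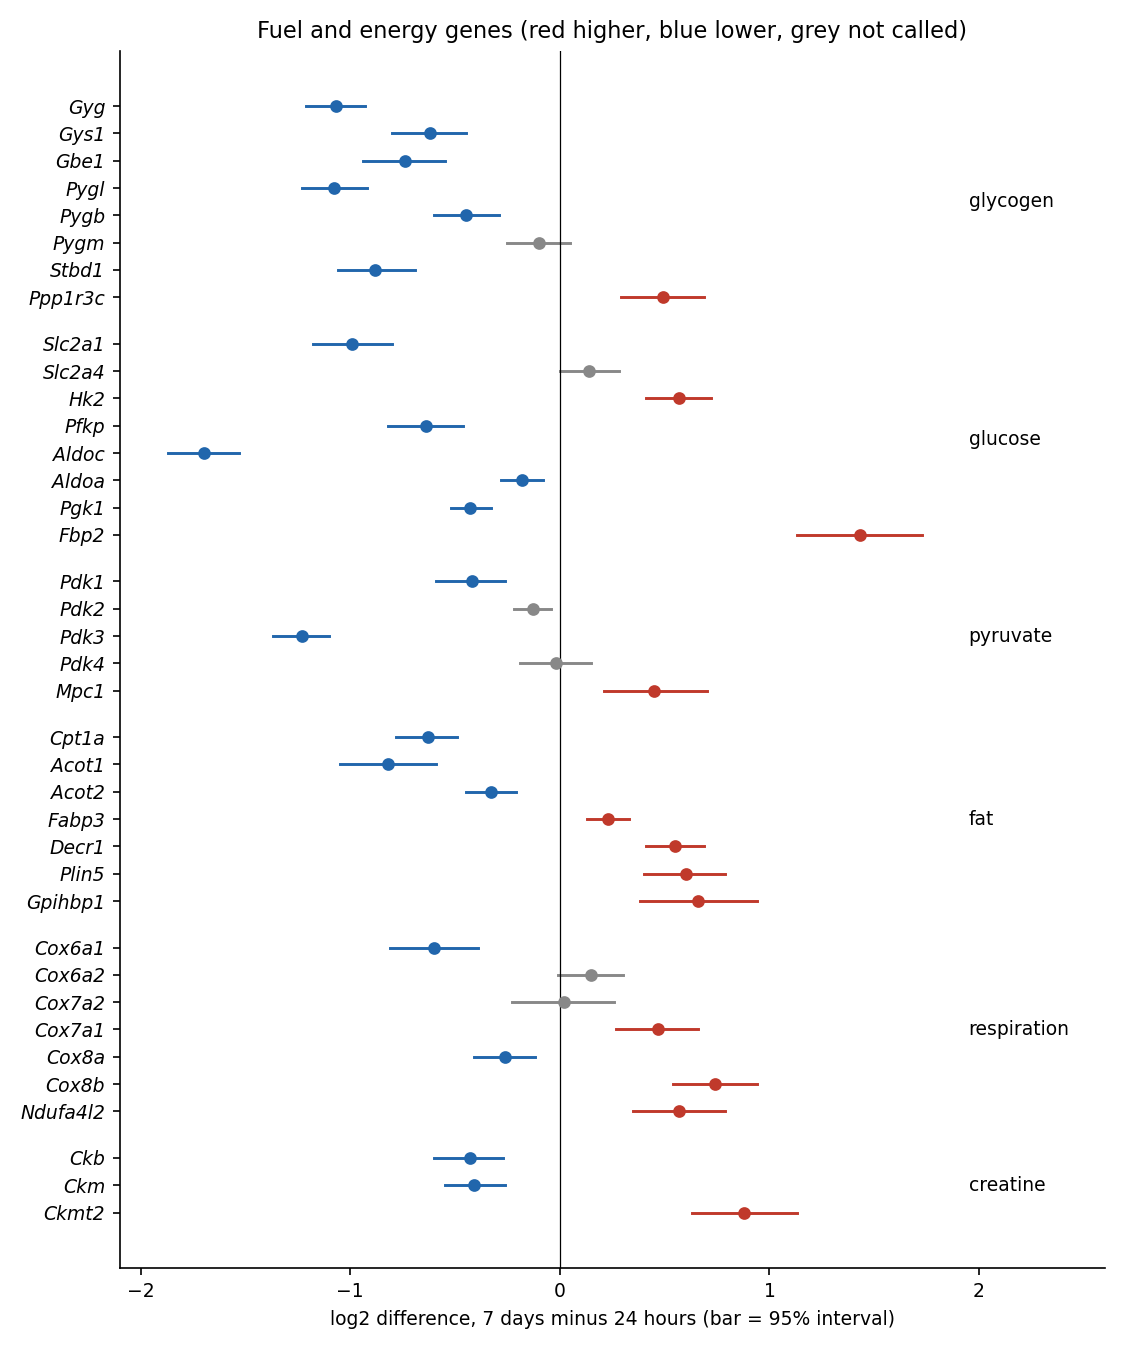
Log2 difference, 7 days minus 24 hours, with its 95% interval (x axis) for genes of glycogen, glucose, pyruvate, fat, respiration and creatine (y axis). Red genes were called higher, blue ones lower and grey ones not called; Aldoc lies lowest at -1.70 and Fbp2 highest at 1.43.

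Genes of the growth factor that dominates fetal life fell together with its receptors. Of 17 IGF and insulin genes 8 fell and 2 rose, and the list's median was -0.33. The rises numbered 1 without 24-hour replicate 2 or 7-day replicate 3 and on replicate 1 alone. The ligand Igf2 measured 12.06, 12.07 and 11.98 at 24 hours and 11.25, 11.33 and 11.38 at 7 days, a fall of 0.72, and stood at 7.85 ± 0.21 at 10 weeks. Igf1 measured 8.32 ± 0.05 and 8.58 ± 0.22 (adjusted p = 0.154). The clearance receptor Igf2r fell 2.28-fold, from 10.46, 10.48 and 10.22 to 9.11, 9.28 and 9.21, the signalling receptor Igf1r fell by 0.84 and the insulin receptor Insr by 0.43. Igf2bp1 and Igf2bp3, which bind Igf2 mRNA in the embryo, fell by 1.32 each; a second, dim feature of Igf2bp1 differed by -0.14. Igfbp7, a secreted binding protein, rose by 0.90, from 11.08 ± 0.02 to 11.98 ± 0.11. The groups do not overlap for either gene, and with 7-day replicate 1 alone 7 members fell.

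Of 19 growth genes listed as imprinted, that is, expressed from 1 parental copy in at least some tissues, 11 fell and 1 rose. The median was -0.50. Whether each is imprinted in heart was not tested. Dlk1 fell 2.65-fold, Plagl1 2.35-fold, and Grb10, which restrains insulin receptors, from 10.94 ± 0.02 to 10.14 ± 0.03. Cdkn1c fell by 0.64 and Peg10, named after its value was seen, by 0.69. The 1 rise was Dcn, which belongs to the matrix genes below. Mest fell by 0.75 in 3 of the 6 fits and lost its call without 24-hour replicate 1 or 2 or 7-day replicate 3, at adjusted p of 0.0507, 0.0613 and 0.0574. Without 24-hour replicate 1 or 2 or 7-day replicate 3, 7 members fell, and on replicate 1 alone 8 fell. Bex4 and Bex1, a related pair on the X chromosome, were among the largest falls of all, by 1.91 and 1.56.

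Most DNA replication genes had a small positive difference and most mitosis genes a small negative one. Of 39 replication genes 31 had a positive difference and the median was 0.17, with 3 called higher, beside 5.27% of all genes, and none lower: Pola1, the catalytic subunit of polymerase alpha, rose by 0.53, the sliding clamp Pcna from 9.10, 9.11 and 9.24 to 9.58, 9.54 and 9.66, and the primase subunit Prim2 by 0.42. The 3 were called whichever array was left out, and 1 on replicate 1 alone. The median of the list was 0.08 without 7-day replicate 3, and its summed log2 signal of 12.09, 12.09 and 12.31 at 24 hours overlapped the 12.31, 12.23 and 12.42 at 7 days. Of 20 cyclin, E2F and G1/S control genes 3 rose and 2 fell. Their median was -0.02, with 9 positive and 11 negative differences. The largest rise of that list was cyclin E2, Ccne2, by 0.51. Without 24-hour replicate 1 or 2 or 7-day replicate 2 or 3, 2 of its rises were left. Of 42 mitosis genes 35 had a negative difference, the median was -0.19, and 6 fell. The phosphatase Cdc25c measured 5.74, 5.62 and 5.97 at 24 hours and 5.06 on each 7-day array, and Ccnb2, cyclin B2, fell from 9.10, 9.16 and 9.42 to 8.61, 8.60 and 8.59. The highest 24-hour value of both came from replicate 3, and without that array the median of the list was smallest in size of the 6 fits, at -0.08. Only Cdc25c and Ccnb2 were called in all 6 fits; without 24-hour replicate 3, or 7-day replicate 1, 2 or 3, they were the only 2 called, and on replicate 1 alone none was. Of 16 cytokinesis genes 2 rose and 1 fell, with a median of -0.04, and 1 rise was left without 24-hour replicate 2. The fall was Kif20a, a kinesin of the cleavage furrow, by 0.61.

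The proliferation antigen gene Mki67 and cyclin A2 did not pass the test. Mki67 measured 9.27, 9.23 and 9.58 at 24 hours and 9.28, 9.36 and 9.40 at 7 days (difference -0.01, 95% interval -0.47 to 0.45), and Ccna2 differed by -0.18 (-0.57 to 0.21). At 10 weeks they stood at 5.77 ± 0.51 and 5.07 ± 0.41. The cell cycle inhibitors fell more often than they rose, 7 against 1 of 19, among them Gadd45b by 0.66, Rbl2 by 0.49 and Cdkn1b, the kinase inhibitor p27, by 0.34; a second feature of Cdkn1b differed by -0.52 with an adjusted p of 0.056. Without 24-hour replicate 2, 4 of them fell, and on replicate 1 alone 2 fell and none rose. Myc fell by 0.61 and its relative Mycn rose by 0.36. In bulk RNA a change in the number of dividing cells and a change in the RNA per cell cannot be told apart, here and for every cell type below.

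The promoter of Ccnb2 is shown as that of a mitotic gene that fell. The 250 bases before its start (chr9:70421555-70421804, reverse strand; RefSeq, GRCm38.p6) hold 3 matches to CCAAT, the box bound by the trimeric factor NF-Y, searched on both strands and in capitals, at 87, 54 and 21 bases before the start and so 33 bases apart. At least 1 match occurs in 33.8% of windows.

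Ccnb2: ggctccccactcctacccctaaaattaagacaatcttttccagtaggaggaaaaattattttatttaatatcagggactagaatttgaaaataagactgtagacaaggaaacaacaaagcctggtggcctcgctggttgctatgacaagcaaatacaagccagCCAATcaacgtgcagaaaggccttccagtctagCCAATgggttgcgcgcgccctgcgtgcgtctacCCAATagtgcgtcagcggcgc

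Several genes that answer to glucocorticoids fell. Of 23, 9 fell and 2 rose, with a median of -0.15. Mt2, a metallothionein that binds zinc and is induced by metals and glucocorticoids, measured 10.58, 11.01 and 10.58 at 24 hours and 9.15, 9.06 and 8.99 at 7 days, a fall of 1.66 ± 0.15 (SE; 3.15-fold, adjusted p = 0.000102). The clock gene Per1 fell from 7.83, 7.53 and 7.71 to 6.66, 6.88 and 6.72 and the lipocalin Lcn2 by 0.97. Fkbp5, a chaperone and classic target of the receptor, measured 6.66, 7.28 and 6.58 at 24 hours and 6.01, 5.82 and 6.03 at 7 days, highest on 24-hour replicate 2. Its call held in 2 of the 6 fits and was lost without 24-hour replicate 2 (adjusted p = 0.0739) or any 1 of the 7-day arrays (0.0582, 0.0733 and 0.0666). The receptor itself, Nr3c1, rose from 8.03 ± 0.01 to 8.45 ± 0.01, and the phosphatase gene Dusp1 by 0.91. Tsc22d3 and Sgk1, targets of the receptor looked up after other values were seen, differed by -0.23 (adjusted p = 0.404) and -0.03 (adjusted p = 0.913). Without 24-hour replicate 2 or 7-day replicate 2, 5 members fell, and on replicate 1 alone 3 fell and 1 rose. Of the 17 clock genes Per1 fell and Bhlhe40 rose by 0.39 in 2 of the 6 fits, with no rise without 24-hour replicate 1 or 2 or 7-day replicate 2 or 3; the hour at which hearts were taken is not given in the labels.

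The promoter of Mt2 is shown because it made the largest fall of that list. Its 250 bases before the start (chr8:94172368-94172617, forward strand; RefSeq, GRCm38.p6) hold 3 matches to the metal response element core, TGCACNC or TGCGCNC on either strand, in capitals. They begin 223, 128 and 50 bases before the start, and 21.4% of windows hold at least 1. The window of the neighbouring Mt1, which fell by 0.41 in 2 of the 6 fits, holds 1. Bases after the listed start were searched for neither gene, so these counts do not compare all elements of the genes. The call of Mt1 was lost without 24-hour replicate 2 or 3 or 7-day replicate 1 or 2, at adjusted p of 0.06, 0.0539, 0.0656 and 0.0558.

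Mt2: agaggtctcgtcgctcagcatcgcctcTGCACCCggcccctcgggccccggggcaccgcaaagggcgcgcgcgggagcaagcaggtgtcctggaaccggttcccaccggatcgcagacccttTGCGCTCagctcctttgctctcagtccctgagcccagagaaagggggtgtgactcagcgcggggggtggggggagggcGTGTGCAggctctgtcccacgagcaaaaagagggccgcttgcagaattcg

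Oxygen-linked genes did not move one way: of 33 hypoxia response genes 7 rose and 6 fell, with a median of -0.00. Hif3a, an inhibitory relative of the hypoxia-inducible factors that also stands in the glucocorticoid list, fell 3.07-fold, from 5.82, 6.50 and 5.26 to 4.25, 4.39 and 4.09. Epas1, which encodes HIF-2 alpha, rose from 8.77 ± 0.03 to 9.26 ± 0.00. Hif1a, looked up after other values were seen, differed by -0.16 (-0.36 to 0.05). Ankrd37 rose by 0.72, while the glucose genes Aldoc, Slc2a1, Pgk1 and Pdk1, shared with the fuel lists above, made up 4 of the 6 falls. Without 7-day replicate 3, 3 members rose, and on replicate 1 alone 3 rose and 3 fell.

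Genes of the signals that pattern the fetal heart moved both ways. Hey2, a Notch effector that holds compact ventricular muscle, measured 9.39, 9.47 and 9.46 at 24 hours and 7.65, 7.75 and 7.32 at 7 days, a fall of 1.86 ± 0.10 (SE; 3.64-fold). Its relative Hey1, and Hes1, rose by 0.67 and 0.42, so of 19 Notch genes 6 rose and 1 fell. Besides Hey1 and Hes1 none of the rises held in all 6 fits, and 3 were left without 24-hour replicate 3, 7-day replicate 1 or 7-day replicate 3. On replicate 1 alone 1 rose and 1 fell. Bmp7 fell 3.14-fold, from 8.06, 8.42 and 8.42 to 6.82, 6.55 and 6.57. Bmp10, a growth factor of atrial and trabecular muscle, went from 8.75, 8.53 and 7.42 to 9.32, 9.75 and 10.11 and was called in 5 of the 6 fits, with an adjusted p of 0.0572 without 7-day replicate 3. The BMP response genes Id1 and Id3 rose by 0.72 and 0.36. Of 43 genes of the BMP and TGF-beta pathways 5 rose and 4 fell, beside 5.27% and 4.81% of all genes. Without 7-day replicate 3, 2 rose, and without 24-hour replicate 1 or 2 or 7-day replicate 1, 1 fell; on replicate 1 alone none rose and 1 fell. Of 37 Wnt genes 4 fell and 1 rose (Lgr6, called in 2 of the 6 fits and not without any 1 of the 24-hour arrays or 7-day replicate 3), and on replicate 1 alone 1 fell, with the R-spondin receptor Lgr4 at 8.04, 8.08 and 8.13 and then at 7.36 on each 7-day array.

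Of 29 cardiac transcription factors 8 fell, 1 rose and 25 had a negative difference. Gata6 fell from 9.98 ± 0.04 to 9.34 ± 0.04 and the ventricular homeobox gene Irx4 by 0.64, whereas Gata4 measured 9.66 ± 0.08 and 9.52 ± 0.06 (adjusted p = 0.171). Without 7-day replicate 3, 5 fell, and on replicate 1 alone 2 fell and 1 rose. Among 27 nuclear receptors 6 rose and 1 fell. Rxrg, a retinoid X receptor that pairs with thyroid hormone receptors, measured 4.57, 4.37 and 4.63 at 24 hours and 6.66, 6.66 and 6.70 at 7 days; the rise of 2.15 ± 0.08 (SE; 4.44-fold) had the smallest adjusted p of all, 2e-06, shared with Vtn and Myh7. Leaving out any 24-hour array or 7-day replicate 2 left 3 of the 6 rises, and 2 were made on replicate 1 alone. The thyroid receptor Thra differed by 0.03 (-0.11 to 0.18).

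Connective tissue genes rose widely. Of 17 fibroblast markers 10 rose and none fell, with a median of 0.83 against -0.002 for all genes, and the 10 were called whichever array was left out. Their summed log2 signal was 13.76, 13.57 and 13.57 at 24 hours and 14.15, 14.47 and 14.33 at 7 days, highest on 7-day replicate 2. On replicate 1 alone the median was 0.57 and 5 markers rose. Mfap5, a microfibril protein, rose from 8.68, 8.48 and 8.21 to 9.91, 10.20 and 10.12. The proteoglycan genes Lum and Dcn rose 2.73-fold and 1.78-fold, and Dpt 2.36-fold. Pi16 and Clec3b rose by 1.14 and 0.97. Pdgfra, the receptor that defines cardiac fibroblasts, and Tcf21, their transcription factor, measured 0.29 (0.01 to 0.57) and 0.31 (0.10 to 0.52) and did not pass (adjusted p = 0.222 and 0.0744). Fap, a fibroblast protease outside the list, rose 3.99-fold, from 4.75 ± 0.15 to 6.74 ± 0.15, and stood at 5.18 ± 0.07 at 10 weeks.

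Of 39 proteoglycan and matricellular genes 19 rose and 1 fell, the fall (Hapln1) in 1 of the 6 fits. There were 11 rises and 1 fall on replicate 1 alone. Vtn, vitronectin, rose from 5.02, 4.93 and 5.11 to 6.98, 6.98 and 7.19, and Ccn3 from 7.51, 7.39 and 7.17 to 8.72, 9.11 and 9.23. Cthrc1 rose 2.43-fold. Among matrix enzymes Pcolce2, which speeds the trimming of procollagen, rose from 5.59, 5.25 and 5.14 to 7.68, 7.89 and 7.74, a 5.45-fold rise. Timp4, an inhibitor of metalloproteinases, fell 2.57-fold and was at 7.95 ± 0.23 at 10 weeks. Of 29 matrix enzymes 8 rose and 3 fell; 5 rose without 7-day replicate 3, and 2 fell whichever array was left out. On replicate 1 alone 1 rose and 1 fell.

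Collagens and elastic fibres depended on the array. Col15a1, Col14a1 and Col3a1 rose by 1.22, 0.94 and 0.85, but Col1a1 measured 10.12, 9.96 and 9.98 at 24 hours and 10.19, 10.89 and 10.49 at 7 days, highest on 7-day replicate 2, and did not pass (adjusted p = 0.0843). With 7-day replicate 1 alone Col1a1 differed by 0.17 and Col3a1 by 0.57. Of 29 collagens 6 rose, with 4 rises left without 24-hour replicate 3 and 10 made without 7-day replicate 1; on replicate 1 alone 1 rose and 1 fell. Fbn2, the fibrillin of embryonic microfibrils, fell by 1.00 while the other called elastic fibre genes, Mfap5, Mfap4, Fbln1 and Ltbp4, rose, and on replicate 1 alone 1 of the 14 elastic fibre genes rose and 1 fell. Of 32 laminin and integrin genes 3 rose and 1 fell, with 16 positive and 16 negative differences and a median of 0.0. Without 24-hour replicate 2 or 3 or 7-day replicate 2 or 3, 2 rises were left. Without 24-hour replicate 2 or 7-day replicate 1 or 3 none fell. The largest rise of the list was Itgb6, an epithelial integrin subunit, 4.54-fold, from 4.16, 4.38 and 4.50 to 6.42, 6.46 and 6.70.

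**Figure D5:**
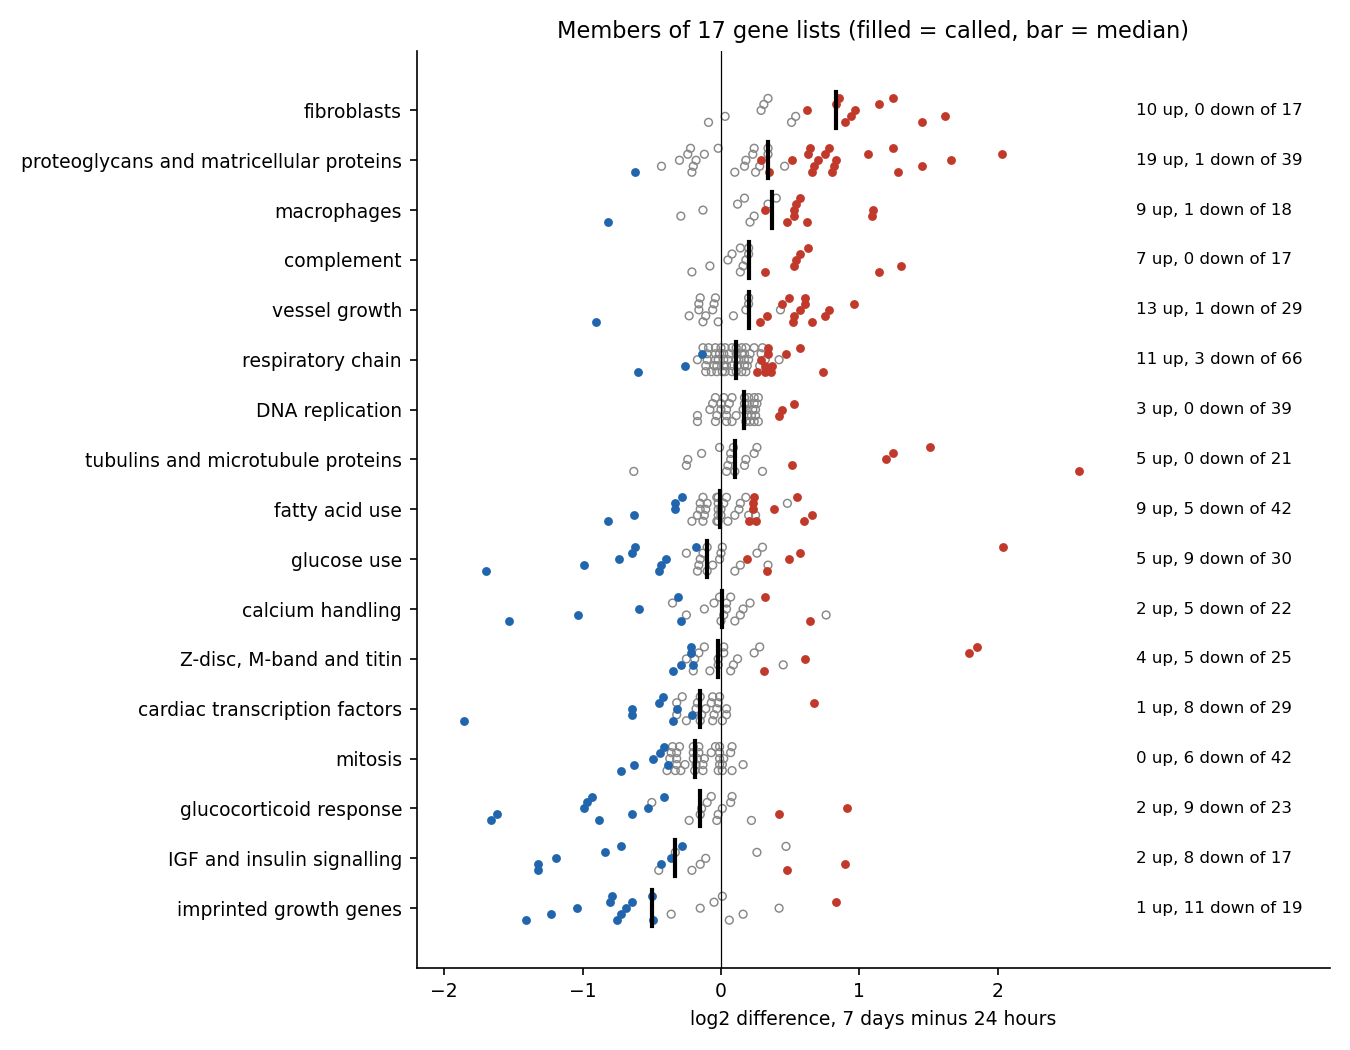
Log2 difference, 7 days minus 24 hours (x axis), of each tested member of 17 gene lists (y axis); filled points were called, red higher and blue lower, bars mark medians and the counts stand at the right. Medians run from 0.83 for fibroblast markers to -0.50 for imprinted growth genes.

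Of 29 vessel growth genes 13 rose and 1, Plvap, fell. The peptide apelin, Apln, rose from 6.54, 6.55 and 6.97 to 7.86, 7.52 and 7.55, and its receptor Aplnr by 0.61. The water channel Aqp1 rose by 0.75, Cxcr4, a guide of sprouting tips, by 0.78 and the VEGF receptor Kdr by 0.33. Plvap, the diaphragm protein of fenestrated endothelium, fell from 7.32, 7.66 and 7.31 to 6.43, 6.57 and 6.59. With 7-day replicate 1 alone 5 rose and Plvap fell. Of 15 general endothelial markers 4 rose and 2 fell, with a median of 0.12, and their summed log2 signal was 13.43 to 13.46 at 24 hours and 13.55 to 13.57 at 7 days. Cdh5, the cadherin of all endothelium, measured 10.65 ± 0.01 and 10.78 ± 0.04 (adjusted p = 0.236), and 2 of the 4 rises and 1 of the 2 falls were left without 24-hour replicate 1 or 2 or 7-day replicate 1. None of them rose and 1 fell on replicate 1 alone.

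Of 12 markers of mural cells, the pericytes and smooth muscle of vessel walls, 4 rose and none fell. The 4 were Vtn, Rgs5, Rgs4 and Kcnj8, of which Rgs5 went from 8.89, 8.81 and 8.86 to 10.29, 10.02 and 10.15 and Rgs4 rose by 0.97. The other markers did not pass: the pericyte genes Abcc9 and Pdgfrb differed by -0.03 and 0.22, and the smooth muscle genes Acta2 and Cnn1 by -0.43 and -0.72. The summed log2 signal of the 12 was 12.95, 13.01 and 13.02 at 24 hours and 12.77, 13.14 and 13.02 at 7 days, so the groups overlap. On replicate 1 alone 4 rose and 1 fell.

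Of 18 macrophage markers 9 rose and 1 fell. Lyz2, lysozyme, rose from 7.30, 7.24 and 7.28 to 8.36, 8.51 and 8.25, and Adgre1, an adhesion receptor used to mark mouse macrophages, from 5.22 ± 0.08 to 6.32 ± 0.01. The complement genes C1qa, C1qb and C1qc, made by macrophages, rose by 0.57, 0.54 and 0.53, and Csf1r, the receptor for their growth factor, by 0.53. The fall was Lyve1, a marker of both lymphatic endothelium and embryonic macrophages, at 8.66, 8.58 and 8.27 and then 7.45, 7.82 and 7.79. It held in 2 of the 6 fits and was lost without 24-hour replicate 1 or 2 or 7-day replicate 1 or 3, at adjusted p of 0.088, 0.0803, 0.0768 and 0.0542. There were 4 rises on replicate 1 alone. The summed log2 signal of the 18 was 10.91, 10.82 and 10.76 at 24 hours and 11.11, 11.22 and 11.16 at 7 days.

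Of 17 complement genes 7 rose and none fell: besides the C1q chains these included C1s1 by 1.30 and the inhibitor Serping1 by 1.14. On replicate 1 alone 2 rose. Of 7 MHC class II genes 3 rose (1 on replicate 1 alone), and H2-Aa rose from 4.66, 4.46 and 4.35 to 6.07, 6.11 and 6.10, still far under its 10.22 ± 0.39 at 10 weeks. Of 26 interferon-stimulated genes 5 fell and 2 rose. Irf7 fell by 0.79, Oasl2 by 0.75 and Ifi27l2a by 0.73. Without 24-hour replicate 1, 3 fell, and on replicate 1 alone 1 fell and none rose. Of 11 T and NK cell markers 2 rose, Thy1 by 0.69 and Cd8b1 by 0.32 in 1 of the 6 fits, beside 5.27% of all genes. Thy1 is also made by fibroblasts. The T cell gene Cd3e measured 5.17 ± 0.13 and 5.28 ± 0.08, and the B cell gene Ighm 5.23 ± 0.10 and 5.23 ± 0.06.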

How the data were processed

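Heart RNA was hybridized to Affymetrix Mouse Gene 1.0 ST arrays. The deposited log2 signals were used as given; MAS5 5.0 is named per the submitters' processing notes, and how probes were summarized and normalized, and on which genome build, is not given in the sources used here. That the base is 2 was read from the values, whose maximum of 13.58 exceeds the natural log of a scanner's full range. Of 35556 features, 21789 carry 1 gene symbol in the platform table, 1621 carry several and 12146 are not listed there. The feature with the highest mean stood for each of 19938 genes.

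The 9 arrays were fitted together in limma 3.58.1 (R 4.3.3), with a mean for each age, lmFit, and eBayes with an intensity trend. The contrast was 7 days minus 24 hours, with Benjamini-Hochberg adjusted p under 0.05 as the threshold and 95% intervals. On simulated data of 19938 genes for this comparison the fit recovered 76% of log2 changes of 0.5 and 98% of changes of 1, and 4.4% of calls were false. The simulated noise was normal and independent between genes and arrays, and far fewer genes were changed than were called here. It holds no signal shared by the genes of an array, so the 4.4% is not an error rate of the calls above. Only 3 arrays per age limit the precision.

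Named genes are the 30 largest called rises and falls without overlap and with the higher mean above the median gene; in each of 50 process and 20 marker lists, up to 8 called members with the largest differences, the 3 brightest, and up to 3 uncalled ones with the narrowest interval; the 15 smallest p-values; and the 20 genes with the widest range within an age. The members and lists were chosen with earlier results of these data known, and further genes are named as chosen after their values were seen. Alternatives were other variance settings, scalings, feature choices and array sets. Promoter sequences are RefSeq's (GRCm38.p6). Python 3.11.15 served for tables (pandas 2.3.3, numpy 2.4.6) and plots (matplotlib 3.10.9).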

Additional observations from a re-analysis of the deposited data

Results flagged for a closer look

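Features outside the 19938 genes also gave calls by limma's test. Each set of features was fitted and adjusted on its own, so its share is not directly comparable with that of the 19938 genes. Of 1621 features that carry several gene symbols 37 were higher and 43 lower at 7 days, 4.94% in all. Of 12146 features that the platform table does not list 10 were higher and 11 lower, 0.173% in all. They are described here because no comparison above uses them, and none was named.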

How the results depend on the processing

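The count of called genes depended on which arrays were used. With only the 6 arrays compared it was 2298. With each of the 9 arrays left out in turn it ran from 1149 to 2316, with 593 to 1160 higher and 547 to 1156 lower. Without 24-hour replicate 1 or 2 or 7-day replicate 3 it was 1283, 1158 and 1149. Without 7-day replicates 2 and 3 together it was 516 (265 higher, 251 lower), and without the 24-hour and the 7-day array with airway transcripts, an alternative chosen after seeing the data, 905 (479 higher, 426 lower). Genes called at least 2-fold apart numbered 111 to 143 with 1 array left out. Of 364 named genes called, 158 kept their call and direction without 7-day replicates 2 and 3 and 250 without the arrays with airway transcripts. With the dimmest feature of each gene in place of the brightest, Irf1 (-0.067) and Tmod1 (0.149) reversed. Deviations of same-numbered arrays correlated at -0.17, -0.05 and 0.13, and those of differently numbered arrays at -0.22 to 0.25. With 3 arrays per age these values cannot tell whether same-numbered arrays shared a batch. The fit with a replicate block called 1734 genes. List medians moved by over 1 SD in 48 of 1399 cases and counts of list members by over 1.5 times in 487 of 2800. The B cell list had no median with dim genes left out.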

Other observations

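Genes that guide nerves and vessels, not described above, changed in both directions. Of 33 axon guidance and innervation genes 6 rose and 5 fell, with 3 rises left without 24-hour replicate 2 or 3 or 7-day replicate 3, and 3 falls left without 24-hour replicate 2 or 3 or 7-day replicate 1 or 3. The median difference was 0.01, and -0.06 with 7-day replicate 1 as the only 7-day array. Sema3c, a semaphorin that attracts neural crest cells, rose from 6.82, 6.39 and 6.49 at 24 hours to 8.04, 8.37 and 8.54 at 7 days by limma's test (adjusted p = 3.92e-05). Sema3a, which repels sympathetic axons, fell by 0.75 and Slit2, another repellent, by 0.84. Gfra2, a receptor for neurturin, rose by 0.72. Ncam1, a cell adhesion molecule, fell 2.61-fold, from 9.89, 10.11 and 9.95 to 8.49, 8.71 and 8.60.

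Of 18 muscle splicing regulators 2 rose and 3 fell. Rbm24 and Rbm20, which set the splicing of titin and other sarcomere transcripts, fell by 0.44 and 0.36, and Rbfox1 and Mbnl1 rose by 0.48 and 0.32. Each of the 4 was called whichever of the 6 arrays was left out, but with 7-day replicate 1 as the only 7-day array none of the 18 was called. Of 39 chemokine and cytokine genes 6 rose and none fell, among them Tnfsf10 by 1.25, Cxcl9 by 0.80 and Kitl, the ligand of Kit, by 0.70, with 4 left without 24-hour replicate 2 or 3 or 7-day replicate 3. The median difference of the 39 was 0.05, and 0.07 with 7-day replicate 1 as the only 7-day array.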
